A study of Homo sapiens with 6 samples.

Results

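The epidermal growth factor receptor (EGFR) family was examined in fluvastatin-sensitive and fluvastatin-resistant breast epithelial cells. It is represented by 3 receptors (EGFR, ERBB2 and ERBB3) and 7 ligands (AREG, EREG, HBEGF, TGFA, EPGN, BTC and NRG1). The 10 genes were chosen by name, and a symbol with several probe sets is represented by its brightest, averaged over the arrays used. All 10 were found among the 81496 gene symbols of the deposited table. The arrays compared MCF10.AT1, a fluvastatin-sensitive preneoplastic human line made from MCF10A breast epithelial cells with an activated HRAS, with its descendant MCF10.AT1-R, which survived fluvastatin doses raised stepwise between 1 and 20 µM. The labels name MCF10.AT1 medium for both lines, and the methods give horse serum, EGF, hydrocortisone and insulin for the medium of MCF10.AT1. MCF10.AT1-R is 1 selected line, so a trait of the selection and a trait of that line cannot be told apart, and the labels, which carry 1 treatment text for all samples, do not say whether fluvastatin was present when RNA was taken. There were 3 Clariom D arrays of each line, labelled as biological replicates, and each value is a log2 expression level made by robust multichip averaging (RMA).

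Receptors of this family sit in the cell membrane and pair when a ligand binds, which switches on their kinases and the RAS-ERK and PI3K-AKT pathways. ERBB2 binds no known ligand and works as a partner, and ERBB3 has a weak kinase and binds neuregulins such as NRG1. The other ligands bind EGFR, some of them also ERBB4, and are made as membrane proteins that metalloproteases release. MCF10A cells depend on EGF in culture and are known to make EGFR ligands of their own.

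One MCF10.AT1 array, A03, was removed by the study as an outlier and stood apart here too. Its Pearson correlation with the other arrays over 135750 transcript probe sets lay between 0.779 and 0.795, against 0.967 to 0.977 among the others. The 4 hybridization controls, which are added after the cells' RNA has been labelled, averaged 5.99 on A03 and at least 10.35 elsewhere. The lines were therefore compared over A01 and A02 for MCF10.AT1 and B02, B03 and B04 for MCF10.AT1-R, and A03 is given apart. The array names hold no line name. Which letter is which line was read from the study's removal of A3 and the samples it shows afterwards. Every direction given here rests on that reading. Each change is the mean log2 value in MCF10.AT1-R minus that in MCF10.AT1, fitted with limma over 51457 probe sets that passed a filter on low and invariant expression. A gene was said to rise or fall only at a false discovery rate (FDR) of 5%. Of all probe sets tested, 1.2% passed in either direction, 0.758% as higher and 0.447% as lower in MCF10.AT1-R, and the median log2 change was -0.01. These 5 arrays can be split in 10 ways, too few for an exact permutation test of 1 gene to pass (the smallest two-sided p is 0.2 with the smaller tail doubled), so the limma fit is the test throughout. No probe set with a log2 change under 1.07 in size passed.

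Both cell lines expressed epithelial markers, basal and some luminal ones. All 10 genes listed as basal markers read above the negative control probe sets (their 95th percentile, a log2 value of 2.99 on average) on each of the 5 arrays. CDH1 on that list is a gene of epithelium in general. KRT5, a basal keratin, read 8.80 and 8.74 in MCF10.AT1 and 10.45, 10.42 and 10.57 in MCF10.AT1-R. Of 8 luminal markers, KRT8, KRT18, KRT19, GATA3 and FOXA1 were above them on all 5 arrays, and KRT18 read 9.71 and 9.89 in MCF10.AT1. PTPRC of leukocytes, PDGFRB and LUM of fibroblasts and KDR of endothelium were within the negative controls on all 5 arrays, as were the luminal hormone receptors PGR and PRLR. Other genes of these lists read above the controls on all 5 arrays, 4 of 5 for leukocytes, 3 of 7 for fibroblasts and 2 of 4 for endothelium.

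ERBB3 and HBEGF rose in the resistant line, and they were the only members of the 10 to pass FDR 5%. ERBB3 was 3.61 times higher and HBEGF 3.42 times higher in MCF10.AT1-R. For 7 of the 10 genes every MCF10.AT1-R array lay above both MCF10.AT1 arrays, an order found for 12.2% of all transcript probe sets, and for none did every one lie below. The median log2 change of the 10 was 0.45, with 9 positive values and 1 negative value. The summed log2 level of the 3 receptors was 13.6 and 13.8 in MCF10.AT1 and 15.5, 16.1 and 16.0 in MCF10.AT1-R. For the 7 ligands the sum was 37.5 and 36.7 in MCF10.AT1 against 41.8, 40.7 and 40.7 in MCF10.AT1-R. ERBB3 alone gave 1.85 of the difference between the receptor sums, against 0.08 from EGFR and 0.26 from ERBB2. To that between the ligand sums HBEGF gave 1.77, EPGN 0.90, NRG1 0.73, TGFA 0.62, AREG 0.29, BTC 0.17 and EREG -0.53. These sums describe the arrays and were not tested.

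**Figure D1:**
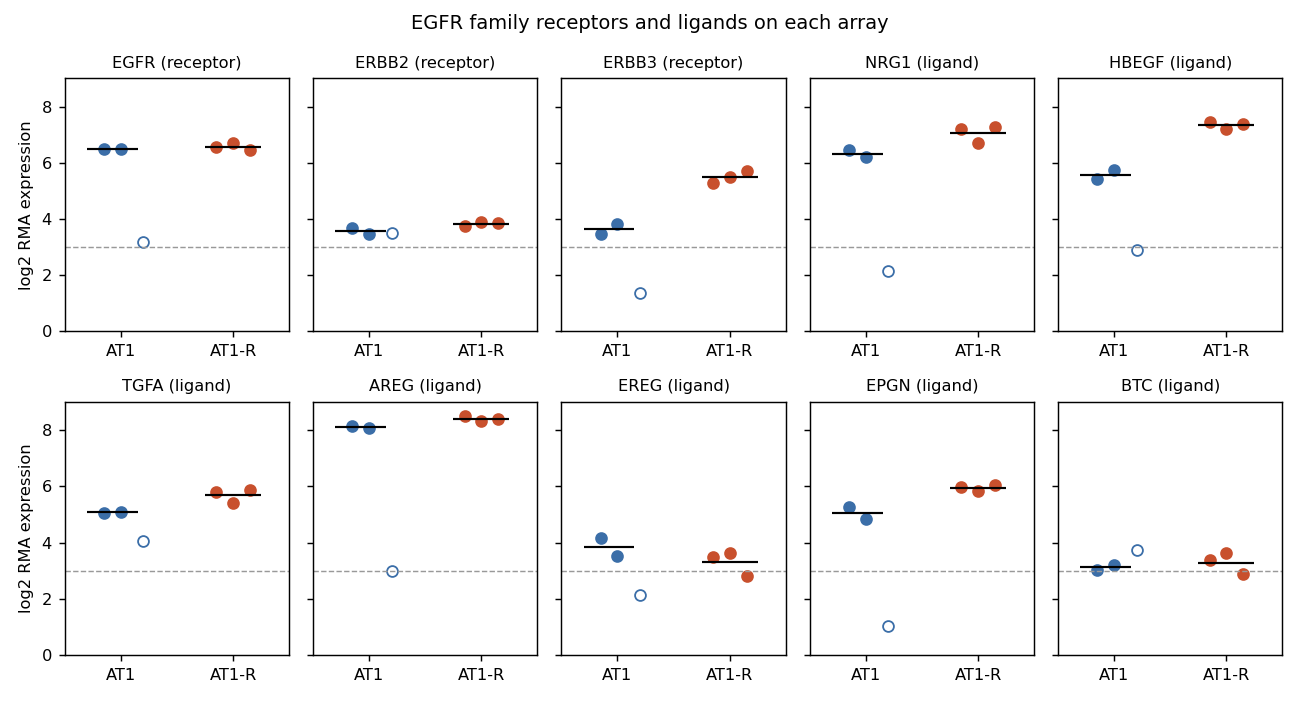
Log2 RMA expression (vertical axis) of the 3 receptors and 7 ligands on each array of MCF10.AT1 (AT1, blue) and MCF10.AT1-R (AT1-R, orange). Filled points are the 5 arrays compared, the open point is A03, short lines are the means without A03, and the dashed line is the 95th percentile of the negative controls (2.99). The means of the lines lie 1.85 apart for ERBB3 and 1.77 apart for HBEGF, while the EGFR points overlap.

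EGFR, the receptor of most of these ligands, did not pass the test. It read 6.48 and 6.49 on the MCF10.AT1 arrays and 6.55, 6.71 and 6.44 on those of MCF10.AT1-R. The lines overlapped, with B04 below both MCF10.AT1 arrays. The log2 change was 0.08 with a 95% interval of -0.35 to 0.51 (adjusted p = 0.962 from limma without a filter, since EGFR was removed as invariant).

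ERBB2, the ligandless partner, read low on this platform. Its brighter probe set gave 3.67 and 3.46 in MCF10.AT1 and 3.73, 3.90 and 3.85 in MCF10.AT1-R. All 3 resistant arrays lay above the others, and all 5 were within 1 log2 unit of the limit of the negative controls. The log2 change of 0.26 had a 95% interval of -0.17 to 0.69 (adjusted p = 0.850 from limma without a filter). The other ERBB2 probe set read 3.17 and 2.63 against 2.30, 3.46 and 3.20, where the lines overlapped. No change of ERBB2 RNA was called, and nearness to the negative controls leaves little room for a fall to show.

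ERBB3, the neuregulin receptor, was the member with the largest change in the reported fit, with HBEGF close behind. HBEGF was ahead without B04 (1.751 against 1.744 for ERBB3) and with A03 added back (2.66 against 2.61). ERBB3 read 3.47 and 3.80 in MCF10.AT1 and 5.27, 5.49 and 5.71 in MCF10.AT1-R. The highest MCF10.AT1 array was 1.47 below the lowest MCF10.AT1-R array, and all 5 lay above the negative controls. Both MCF10.AT1 arrays were within 1 log2 unit of the limit of these controls, so the level the rise starts from was near background. The mean was 3.64 ± 0.24 (SD, n = 2) in MCF10.AT1 and rose to 5.49 ± 0.22 (SD, n = 3), which is a log2 change of 1.85 with a standard error of 0.31 (adjusted p = 1.21e-06 by limma, Benjamini-Hochberg adjusted). ERBB3 has 1 probe set on the array, and 99.8% of tested probe sets changed by less in size. In these bulk cultures, more cells with ERBB3 RNA and more of it per cell cannot be told apart.

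NRG1 encodes a ligand of ERBB3. It read 6.45 and 6.19 in MCF10.AT1 and 7.19, 6.69 and 7.27 in MCF10.AT1-R. The lines did not overlap, although B03 was only 0.24 above A01. The log2 change of 0.73 (standard error 0.31) did not pass the threshold (adjusted p = 0.410 from limma). It passed when the variance was allowed to follow the expression level (adjusted p = 0.00553 from limma's trend option), a setting in which 4 members and 2.68% of tested probe sets passed. With the trend option after the low-expression filter alone, chosen after seeing the data, NRG1 did not pass (adjusted p = 0.0655 from limma).

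HBEGF, the heparin-binding ligand of EGFR and ERBB4, was the ligand that changed most. It read 5.41 and 5.73 in MCF10.AT1 and 7.46, 7.19 and 7.39 in MCF10.AT1-R. The gap between the lines was 1.45, several times the range within either. The mean was 5.57 ± 0.23 (SD, n = 2) in MCF10.AT1 and rose to 7.35 ± 0.14 (SD, n = 3), which is a log2 change of 1.77 with a standard error of 0.31 (adjusted p = 5.13e-06 from limma). Among tested probe sets, 99.8% had a smaller change in either direction.

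TGFA, which binds EGFR and is a long-known autocrine factor of mammary epithelium, read 5.04 and 5.10 in MCF10.AT1. The MCF10.AT1-R arrays read 5.80, 5.39 and 5.88, all above these. The log2 change of 0.62 had a 95% interval from just above 0 to 1.23, and did not pass once adjusted over all probe sets (adjusted p = 0.597 from limma).

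**Figure D2:**
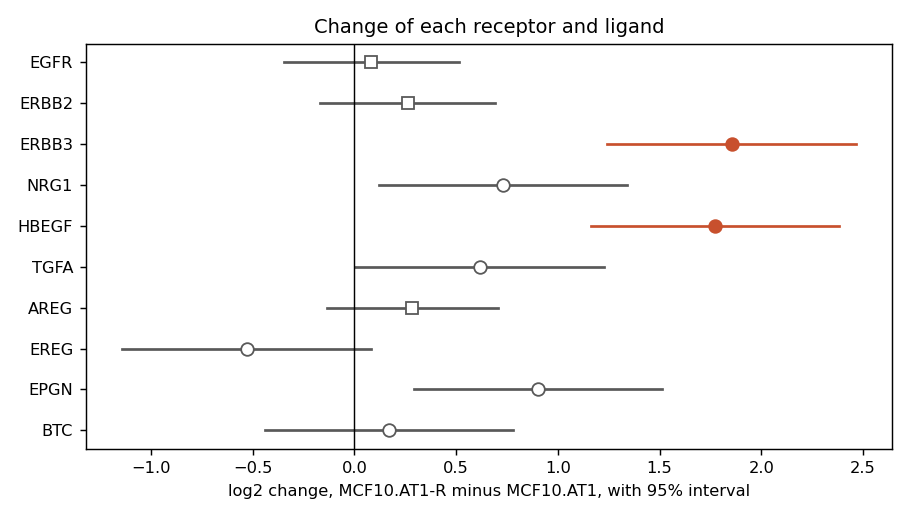
Fitted log2 change in MCF10.AT1-R relative to MCF10.AT1 (horizontal axis) with its 95% interval from limma, for each receptor and ligand (2 arrays against 3). Filled orange points passed FDR 5%, open circles did not pass, and open squares were invariant probe sets, taken from the unfiltered fit. The intervals of ERBB3 (1.24 to 2.46) and HBEGF (1.16 to 2.38) lie apart from those of EGFR, ERBB2, AREG, EREG and BTC. Both overlap those of EPGN (0.29 to 1.51) and NRG1 (0.12 to 1.34), and that of HBEGF also overlaps that of TGFA (up to 1.23).

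Another 4 ligand genes, EPGN, EREG, AREG and BTC, follow each other on chromosome 4 with no other protein-coding gene between them in RefSeq. Their changes ranged from -0.53 to 0.90 and none passed FDR 5%. The bases just upstream of the RefSeq start of EPGN, EREG and AREG, in that order along the chromosome, are printed with those of HBEGF to set the ligand that rose beside 3 neighbours that did not pass. Each stretch holds 250 bases, 5′ to 3′ on the gene's own strand, from RefSeq on GRCh38.p14. Capitals mark every match, on either strand, to 6 short motifs. The AP-1 motif was searched as TGANTCA, the cyclic AMP response element (CRE) as TGACGTCA, and the site of TEAD factors as GGAATG. The SP1 motif was searched as GGGCGG, the TATA box as TATAAA, and the sterol response element as TCACNCCAC.
EPGN, chr4:74308220-74308469, plus strand: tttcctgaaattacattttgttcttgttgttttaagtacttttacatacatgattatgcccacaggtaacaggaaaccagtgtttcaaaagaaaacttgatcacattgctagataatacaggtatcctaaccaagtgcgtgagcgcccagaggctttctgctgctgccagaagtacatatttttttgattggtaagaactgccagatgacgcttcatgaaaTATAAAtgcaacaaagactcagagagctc
EREG, chr4:74364895-74365144, plus strand: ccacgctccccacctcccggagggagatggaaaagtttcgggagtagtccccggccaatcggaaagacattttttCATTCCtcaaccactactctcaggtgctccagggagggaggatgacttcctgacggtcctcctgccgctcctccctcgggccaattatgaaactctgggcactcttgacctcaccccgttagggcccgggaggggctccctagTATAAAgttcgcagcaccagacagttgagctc
AREG, chr4:74444886-74445135, plus strand: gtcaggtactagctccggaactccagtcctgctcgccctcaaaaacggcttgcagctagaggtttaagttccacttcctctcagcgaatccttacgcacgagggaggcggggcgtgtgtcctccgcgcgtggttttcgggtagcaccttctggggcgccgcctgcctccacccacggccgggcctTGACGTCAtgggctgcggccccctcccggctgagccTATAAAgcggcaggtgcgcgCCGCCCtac
HBEGF, chr5:140346604-140346853, minus strand: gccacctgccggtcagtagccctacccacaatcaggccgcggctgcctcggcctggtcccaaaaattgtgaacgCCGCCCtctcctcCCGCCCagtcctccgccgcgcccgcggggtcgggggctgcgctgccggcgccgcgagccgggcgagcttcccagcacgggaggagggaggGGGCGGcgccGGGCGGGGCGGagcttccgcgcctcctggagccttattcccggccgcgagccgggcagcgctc

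EPGN, EREG and AREG each have the TATA letters in this window, with the first base at -29, -32 and -29 from the start, whereas 10.7% of 35116 such RefSeq windows hold them. The window of BTC, the other neighbour, holds none of the 6 motifs, and 1 EGFR window holds the TATA letters at 2 positions. The HBEGF window has no TATA letters and has 5 SP1 matches, a motif found in 42.6% of windows. AREG also holds 1 SP1 match, at -9, and has the CRE letters at -65, which 1.65% of windows share. EREG has a TEAD match (11.9% of windows). The AP-1 letters (6.57%) and the sterol response element letters (0.883%) are in none of the 4 windows. Windows of 8 of the 10 members were searched, with 2 each for EGFR and TGFA. ERBB3 and NRG1 were not among them. Outside the 4 printed, the AP-1 letters occur in 1 EGFR window and in the ERBB2 window, and SP1 matches in 1 EGFR and 1 TGFA window. These are matches of letters only and were not tied to any change.

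EPGN, the epigen gene, had the largest change of the 4 neighbours. It read 5.25 and 4.85 in MCF10.AT1 and 5.99, 5.84 and 6.03 in MCF10.AT1-R, without overlap. The log2 change of 0.90 (standard error 0.31) did not pass in the fit as reported (adjusted p = 0.173 from limma) and passed with the trend option (adjusted p = 0.00845).

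EREG, the epiregulin gene next to it, was the only member with a negative change. The values were 4.15 and 3.54 in MCF10.AT1 and 3.49, 3.64 and 2.82 in MCF10.AT1-R. B03 lay above A02, so the lines overlapped, and B04 was within the negative controls. The log2 change of -0.53 had a 95% interval of -1.14 to 0.08 (adjusted p = 0.705 from limma).

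AREG, the amphiregulin gene, read 8.14 and 8.09 in MCF10.AT1 and 8.50, 8.33 and 8.39 in MCF10.AT1-R. The lines did not overlap, and their distance of 0.29 on the log2 scale had a 95% interval of -0.13 to 0.70 (adjusted p = 0.832 from limma without a filter, which had removed AREG as invariant).

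BTC, the betacellulin gene, stayed near the background of the array. It read 3.04 and 3.20 in MCF10.AT1 and 3.37, 3.62 and 2.88 in MCF10.AT1-R, with 3 of the 5 arrays above the negative controls. No change was detectable (log2 change 0.17, 95% interval -0.44 to 0.78, adjusted p = 0.898 from limma).

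On A03 most of the family read far lower, as did some other lists but not all. The mean of the fibroblast markers was 4.06 on A03 against 4.23 and 4.29 on A01 and A02. That of the leukocyte markers was 3.39 against 3.44 and 3.79. The mean log2 level of the basal markers was 3.66 on A03 against 7.34 and 7.29 on A01 and A02, and that of the ERK output genes was 3.21 against 6.14 and 6.24. HBEGF was 2.90, EPGN 1.05, AREG 2.99, NRG1 2.16, EGFR 3.16 and ERBB3 1.37 on that array, each below every other array. TGFA at 4.05 and EREG at 2.14 were also the lowest of the 6. BTC at 3.75 was the highest of the 6 arrays, and ERBB2 at 3.49 lay between A02 and A01. With A03 counted as MCF10.AT1, the log2 changes of ERBB3 and HBEGF became 2.61 and 2.66, and neither passed (adjusted p = 0.777 for both from limma).

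Without A03, ERBB3 and HBEGF passed FDR 5% in the reported fit and in all 13 other fits, of which 5 leave out 1 array each and 8 use all 5 arrays. Over these fits their log2 changes lay between 1.69 and 2.02 for ERBB3 and between 1.61 and 1.93 for HBEGF. The highest adjusted p was 0.042 for ERBB3 and 0.0304 for HBEGF, both with values raised to a floor at the negative controls. After the filter limma gave every probe set the same SD of 0.34, larger than the residual SD of ERBB3 (0.22) and HBEGF (0.17). When only low expression was filtered, so that each probe set kept more of its own variance, the adjusted p was 0.0253 and 0.0216 from limma.

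**Figure D3:**
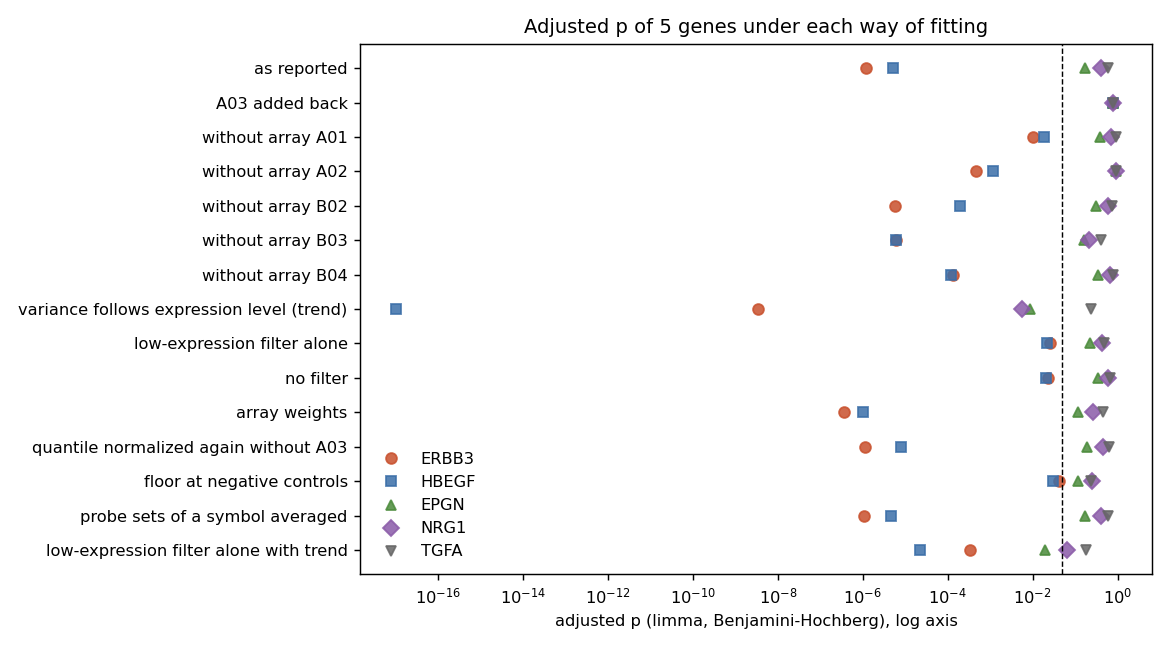
Adjusted p from limma (horizontal log axis) for ERBB3, HBEGF, EPGN, NRG1 and TGFA under the fit as reported and each alternative (rows). The dashed line is the threshold of 0.05. ERBB3 and HBEGF are left of it in every row but that with A03 added back, and EPGN is left of it only in the rows with the trend option.

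No change was called among the remaining members of the family, of which ERBB4, NRG2 and NRG4 read above the negative controls on all 5 arrays. Of ERBB4, EGF, NRG2, NRG3 and NRG4, none passed FDR 5%, and their median log2 change was 0.27. The highest log2 change was that of EGF, 0.71 (adjusted p = 0.449 from limma), which was above the negative controls on 1 of the 5 arrays. NRG3 was within them on all 5 arrays and had the lowest change, -0.28 (adjusted p = 0.841). ERBB4, another neuregulin receptor, read 4.41 and 4.12 in MCF10.AT1 and 4.45, 4.67 and 4.14 in MCF10.AT1-R, with overlap. These values are from its brighter probe set, and its other probe set was within the negative controls on all 5 arrays.

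Among 7 genes of ligand release, 5 metalloproteases of the ADAM family and the 2 iRhoms that regulate ADAM17, ADAM12 fell and the other 6 did not pass. ADAM12, a metalloprotease known to cut HBEGF, read 5.52 and 5.62 in MCF10.AT1 and 4.20, 3.70 and 4.46 in MCF10.AT1-R. All resistant arrays lay more than 1 log2 unit below the others. Its log2 change was -1.45 with a standard error of 0.31 (adjusted p = 0.000709 from limma). The call was lost without A02 (adjusted p = 0.102) and with the low-expression filter alone (adjusted p = 0.118). ADAM17, the main protease for several of these ligands, read 5.15 and 4.61 against 5.03, 4.94 and 4.54. The largest positive change was 0.26, for ADAM10 (adjusted p = 0.846). The median of the 7 was -0.22.

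Of 11 inhibitors and degradation factors, CBLC rose and the other 10 did not pass. CBLC, an epithelial ubiquitin ligase for activated EGFR, read 3.74 and 3.83 in MCF10.AT1 and 5.29, 4.54 and 4.89 in MCF10.AT1-R. The lines did not overlap, and B02 stood highest. The log2 change of 1.12 (adjusted p = 0.0307 from limma) was lost when A01 (adjusted p = 0.422), A02 (0.320), B02 (0.255) or B04 (0.0808) was left out. The largest negative change was -0.59, for the deubiquitinase USP8 (adjusted p = 0.639). ERRFI1, a direct inhibitor of the EGFR kinase singled out after its values were seen, read 9.62 and 9.51 in MCF10.AT1 and 8.98, 9.02 and 8.95 in MCF10.AT1-R. Its change of -0.58 had close replicates on both sides, and its adjusted p was 0.645 in the reported fit and 7.02e-07 with the trend option.

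LRIG1, which promotes loss of EGFR family receptors, carries 10 probe sets that disagree. The brightest, one not mapped to a chromosome, had a log2 change below 0.01 in size and did not pass. The one probe set named for a chromosome read 3.64 and 3.78 in MCF10.AT1 and 2.75, 2.25 and 2.14 in MCF10.AT1-R, all 3 within the negative controls. Its fitted change was -1.33 (adjusted p = 0.00321 from limma, 0.137 without a filter), a value that runs into background, and this probe set was singled out after its values were seen.

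None of 13 adaptors and first effectors passed, and their median log2 change was 0.09. GAB1, a docking protein, had the highest log2 change, 0.84 (adjusted p = 0.247 from limma), reading 6.26 and 5.66 in MCF10.AT1 and 7.05, 6.64 and 6.72 in MCF10.AT1-R. HRAS, the oncogene introduced into MCF10.AT1, had the largest negative change. It read 8.70 and 8.66 in MCF10.AT1 and 7.77, 7.91 and 7.98 in MCF10.AT1-R, a change of -0.79 (adjusted p = 0.316). The deposited values do not separate the introduced gene from the cells' own. With the trend option HRAS (adjusted p = 2.31e-07), GAB1 (0.00172) and the PI3K subunit PIK3R1 (0.0208, log2 change -0.75) passed.

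The ERK output and feedback genes did not move together. Of 15 genes, none passed FDR 5%, 7 had a positive and 8 a negative change, and the median was -0.20. For 12 of the 15 the arrays of both lines were separate, 6 higher and 6 lower, which was so for 23.3% of all transcript probe sets and 26.7% of those tested. SPRY1, a feedback inhibitor of RAS signalling, had the lowest change, -0.70 (adjusted p = 0.460 from limma), with overlapping arrays. CCND1, the cyclin D1 gene, had the largest positive change, 0.65 (adjusted p = 0.545), reading 7.81 and 7.94 in MCF10.AT1 and 8.38, 8.60 and 8.59 in MCF10.AT1-R. DUSP6, a phosphatase of ERK, was at 8.59 and 8.73 against 8.50, 8.39 and 8.50. DUSP6, like ERRFI1, ADAM17 and ERBB4, was picked by name after values were seen. With the trend option CCND1 (adjusted p = 5.47e-05) and ETV5 (0.000192, log2 change -0.62) passed.

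**Figure D4:**
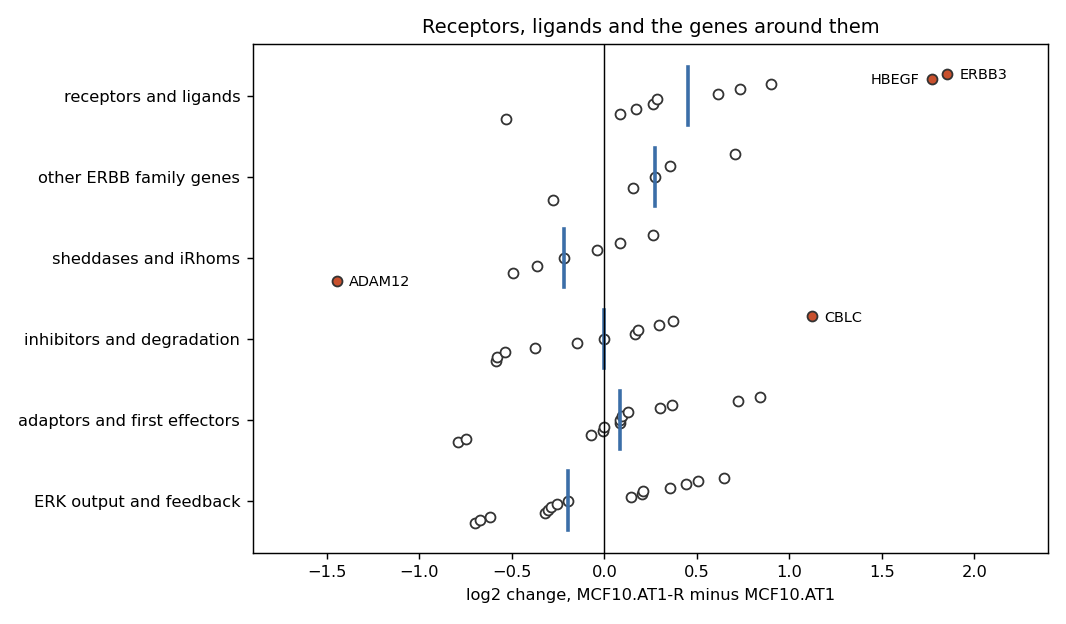
Log2 change in MCF10.AT1-R relative to MCF10.AT1 (horizontal axis) for each gene of the 6 groups (rows), 1 point a gene. Filled points passed FDR 5% in limma and are named, and the blue bar is the median of the group. The medians of the 5 surrounding groups lie between -0.22 and 0.27, and that of the receptors and ligands is 0.45.

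Over the 5 arrays, the gene symbols with profiles among the closest to ERBB3 were EPN3 and LEMD1. The profiles of 36080 symbols were compared, each centred on its own mean. The root mean square difference on the log2 scale was 0.09 for EPN3 and 0.10 for LEMD1. In MCF10.AT1, LEMD1 read 1.68 and 1.80, within the negative controls, and so did EPN3 on A01 (2.94). These 2 distances therefore rest partly on background. For HBEGF the closest were rysweyby and KRT6A, at 0.06 and 0.08. KRT6A, a keratin of basal and stratified epithelium, read 8.93 and 9.06 in MCF10.AT1 and 10.76, 10.60 and 10.81 in MCF10.AT1-R. With 2 groups and 5 arrays this likeness mainly repeats the distance between the lines.

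Some epithelial markers rose in the resistant line. Of the 10 genes listed as basal markers, 7 passed FDR 5% as higher, among them KRT14 (log2 change 2.37), KRT17 (4.08) and TP63 (1.74). The 7 include CDH1 (1.30), which is not particular to basal cells. The summed log2 level of all 10 was 73.4 and 72.9 in MCF10.AT1 and 90.0, 89.9 and 90.6 in MCF10.AT1-R, with KRT6A the brightest. Of 8 luminal markers, KRT8 (1.11) and KRT19 (2.91) rose, and ESR1 (-0.43) and FOXA1 (-0.18) had negative changes that did not pass. Their sum was 38.8 and 38.2 against 43.7, 42.4 and 43.5, with KRT18 the brightest, and PGR and PRLR were within the negative controls on all 5 arrays. Among 8 genes of cornifying keratinocytes, KRT1, CDSN and IVL rose, and the changes of TGM3, FLG and LOR were negative without passing. Without a filter the calls of CDH1 (adjusted p = 0.0616 from limma), KRT8 (0.126), KRT1 (0.136) and CDSN (0.263) were lost. The cornifying list summed to 25.7 and 26.0 in MCF10.AT1 and 31.3, 30.2 and 33.2 in MCF10.AT1-R, IVL was the brightest, FLG was within the negative controls on all 5 arrays, and LOR was above them on 1. Near-identical keratin genes and pseudogenes can share probes. The part of these markers in the changes of ERBB3 and HBEGF was not tested.

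No marker of fibroblasts, leukocytes or endothelium passed as higher. DCN of the 7 fibroblast genes fell by 2.15 on the log2 scale, CD14 of the 5 leukocyte genes by 1.12 and PECAM1 of the 4 endothelial genes by 1.12, and no other gene of these lists passed. Without a filter the calls of CD14 (adjusted p = 0.157 from limma) and PECAM1 (0.170) were lost. The fibroblast list summed to 29.6 and 30.1 in MCF10.AT1 and 27.2, 27.4 and 29.1 in MCF10.AT1-R, with COL1A1 the brightest. The leukocyte list, with CSF1R the brightest, summed to 17.2 and 18.9 against 18.4, 17.6 and 19.3. The endothelial list, with VWF the brightest, summed to 13.8 and 13.4 against 12.7, 11.9 and 11.6.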

How the data were processed

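RNA from both cell lines was measured on 6 Clariom D arrays, 3 of each line. The authors deposited log2 expression values per probe set made by RMA, which corrects background, quantile-normalizes and summarises probes. The methods place the removal of A03 after this step, and the deposited table still holds that array. Array letters were matched to lines because the study removed sample A3 and then shows 2 MCF10.AT1 and 3 MCF10.AT1-R samples. The study's text does not name the line of A3. No per-sample column was left unused. Precision is limited by the number of arrays, and the p-values measure the spread between these cultures only. In the reported fit that spread is an SD of 0.34 shared by all probe sets that passed the filter. Among them p therefore depends on the size of the change and not on the spread of a gene's own replicates.

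The table holds 138745 rows, of which 135750 are transcript and 2995 control probe sets. Transcript probe sets were kept if their mean over the 5 arrays exceeded the median of all (1.88) and their SD exceeded the lowest 25% (0.18). The lines were compared in limma 3.58.1 (R 4.3.3) with lmFit and eBayes, two-sided, with Benjamini-Hochberg adjustment over all probe sets kept. Members outside the filter were taken from the same fit without it. On simulated data the reported fit and the trend option each made false calls above the nominal rate, the low-expression filter alone did not, and smaller changes were mostly missed, so the adjusted p of the reported fit can be too small and a gene that did not pass may still differ. Levels of different probe sets were not tested against each other, and the brightest gene of a list is the one with the highest mean signal, which also depends on its probes.

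The members, gene lists and tests were chosen with earlier results of these data known, and the motifs and the upstream windows after the values were seen. All members were named, and of each list the genes past the threshold and those with the highest and the lowest change. For the receptor and the ligand with the largest change, the symbols with the closest array profiles (up to 3) were named, and 1 gene that this rule selects is not reported here. Alternatives were A03 added back, each array left out, limma's trend option, other filters, array weights, renewed quantile normalization, a floor at the negative controls and other probe sets.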

Additional observations from a re-analysis of the deposited data

How the results depend on the processing

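Depth here is signal over background: the 95th percentile of 612 negative controls was 2.99, so a fall of ERBB2, BTC or EREG, which read near it, had little room to show. ERBB3 also read near it in MCF10.AT1 (3.47 and 3.80). Some values differed from those reported. With A03 added back, 26 probe sets passed FDR 5% (26 higher, 0 lower, against 620, 390 and 230), the median change of all tested moved to -0.14, members passing fell to 0, ERBB3 was at 2.61 and HBEGF at 2.66 (adjusted p = 0.777 for both from limma), EREG turned to 0.038 and BTC to -0.038, and 0 sheddases and 0 inhibitors passed. Leaving out 1 array each gave 271 to 595 probe sets, 156 to 396 higher and 99 to 233 lower, with 0 to 1 sheddases and 0 to 1 inhibitors. The low counts came without A02 (271) and without A01 (314), where the 1 MCF10.AT1 array left is assumed to vary like the other line. The member count was 2 each time. The trend option gave 1377 probe sets, 872 higher and 505 lower, with 4 members (EPGN 0.90 and NRG1 0.73 added), 2 inhibitors, 3 adaptors and 2 ERK output genes. The low-expression filter alone gave 182, 147 and 35, no filter 177, 143 and 34, and the floor at the negative controls 243, 199 and 44, each with 0 sheddases and 0 inhibitors. The share of higher calls was 62.9% as reported, 80.8% under either of those filter settings, 81.9% with the floor and 100% with A03. Chosen after seeing the data, the low filter with the trend option gave 1086 probe sets, 764 higher, with 2 inhibitors, 2 adaptors and 2 ERK output genes and EPGN passing at 0.90, and LRIG1 from its chromosomal probe set gave 2 inhibitors. The cause was not tested. Of the other values, 231 kept their direction and side of the threshold or stayed within 1.5 times the reported count. No paired analysis was possible because the array columns carry no replicate number.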

Other observations

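Transcripts named for an antisense or intronic relation to the members were near background. For EGFR-AS1 the log2 change was 0.25 (limma, adjusted p = 0.853), and it was above the negative controls on 1 of the 5 arrays. That of TGFA-IT1 was 0.35 (adjusted p = 0.830), and TGFA-IT1, NRG1-IT1 and NRG1-IT3 were within the negative controls on all 5 arrays.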
